A study of Mus musculus with 6 samples.

Results

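Genes that the transcription factor p53 is known to induce, other than the cell cycle inhibitor gene Cdkn1a, were examined in mouse cells in which Exosc2 had been knocked down. The 10 genes, Ccng1, Plk2, Zmat3, Phlda3, Perp, Aen, Eda2r, Trp53inp1, Sesn1 and Gdf15, were chosen by symbol among the 17912 genes of the deposited table, and every one of them was present and had a mean high enough to be tested. The tested libraries were 3 clones labelled shEXOSC2 with the genotype EXOSC2_KD (clones 5, 6 and 7), which carry a short hairpin RNA against Exosc2, and they were compared with 3 control libraries labelled WT (replicates 1, 2 and 3). All 6 are labelled as embryonic stem cells (ESCs), pluripotent cells of the early embryo, with no age, strain or treatment. EXOSC2 belongs to the RNA exosome, a complex that degrades RNA from its 3′ end, and the series title places it in aging and cancer. The labels do not say whether the controls carried a hairpin, nor whether each library is a culture of its own. The p-values below therefore set each group difference only against the spread between these libraries, and may not extend to other cultures.

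p53, encoded by Trp53, is held at a low level by the ubiquitin ligase MDM2, and DNA damage and other stresses stabilise it. It then switches on genes that stop the cell cycle, promote cell death, repair DNA, alter metabolism and feed back on p53 itself. In ESCs p53 is also known for favouring differentiation over self-renewal. Several of its target genes answer to other factors as well, such as Gdf15 to the stress factors ATF4 and CHOP, and Sesn1 to FOXO factors.

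Levels are scaled counts, meaning read counts per gene divided by a size factor for each library. Divided by the library's smallest value, taken as 1 read, the totals came to 24268430 to 26494985 in the clones and 21107761 to 24633836 in the controls. For clone 5 and control replicate 3 that value is close to 1 (0.9948 and 1.004), and the check used for such steps did not accept them as whole reads, so these totals are estimates of depth. Exosc2 measured 1138, 996.6 and 980.6 in clones 5, 6 and 7, against 2457, 2473 and 1954 in control replicates 1, 2 and 3, a log2 fold change of -1.14 ± 0.13 (SE, limma adjusted p = 5.1e-05). The ESC label was checked against 12 markers. In the clones 10 of them fell, with the smallest p-values for Esrrb, Dppa5a and Zfp42, and 2, Pou5f1 and Klf4, rose. Zfp42, Dppa3 and Utf1 were at 0 in every clone, and all of these but the first 3 were named after their values were seen. Esrrb had a mean of 2.271 in the clones and 16546 in the controls. Nanog, also named after its values were seen, had means of 0.6741 and 9698. The median log2 fold change of the 12 ESC markers was -9.27. Of 13 tested fibroblast and feeder-cell markers 12 rose, led by Vim, Col3a1 and S100a4, and 1 fell, and the summed level of the 14 in the table was 54610 to 71184 in the clones and 10266 to 12020 in the controls. Of 11 surface epithelium markers 5 rose, Ehf and Krt6a among them, and 6 fell, Elf3 among them. Of 5 tested blood and vessel markers Cd68 rose and Pecam1 and Gata1 fell, and these counts became 2 and 1 without control replicate 3. The defining blood markers Ptprc and Spi1, also named after their values were seen, were under the test's minimum. In the clones the 10 ESC markers that fell and the 12 fibroblast and feeder-cell markers that rose go against the ESC label. Pou5f1, with a mean of 91114 in the clones and 21045 in the controls, and Klf4 do not. The part of these marker differences in the values below was not tested. Control replicate 3 stood apart from the other controls in several genes, as given further on, and the results are also given without it.

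The windows around the start sites of 3 of the genes are shown because each holds a p53 half-site, the unit that p53 binds in pairs. The half-site, searched by its name as the standard consensus on both strands, is in capitals. Sequences are from RefSeq (GRCm38.p6), cover 250 bases before to 50 after a start site and are written 5′ to 3′ on the strand of the gene.
Aen, chr7:78895808-78896107, plus strand: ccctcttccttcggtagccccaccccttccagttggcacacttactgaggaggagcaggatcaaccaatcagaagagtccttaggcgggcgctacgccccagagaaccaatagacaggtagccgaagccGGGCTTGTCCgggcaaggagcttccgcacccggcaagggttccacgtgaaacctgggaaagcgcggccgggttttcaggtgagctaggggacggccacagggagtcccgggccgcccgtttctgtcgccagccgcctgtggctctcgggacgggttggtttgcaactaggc
Ccng1, chr11:40755237-40755536, minus strand: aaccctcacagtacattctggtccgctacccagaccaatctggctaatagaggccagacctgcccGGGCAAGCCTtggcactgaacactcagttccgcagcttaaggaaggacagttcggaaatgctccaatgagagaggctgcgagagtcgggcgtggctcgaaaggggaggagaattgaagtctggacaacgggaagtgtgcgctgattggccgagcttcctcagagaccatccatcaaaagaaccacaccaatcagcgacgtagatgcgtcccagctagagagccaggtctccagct
Sesn1, chr10:41887189-41887488, plus strand: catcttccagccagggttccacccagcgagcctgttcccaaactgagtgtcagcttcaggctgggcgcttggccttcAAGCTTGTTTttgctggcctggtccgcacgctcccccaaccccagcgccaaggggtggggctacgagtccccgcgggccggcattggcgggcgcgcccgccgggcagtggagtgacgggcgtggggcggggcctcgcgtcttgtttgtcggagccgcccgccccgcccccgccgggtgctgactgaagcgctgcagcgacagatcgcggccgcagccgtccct
The half-site begins at base 130 of the Aen window, at base 66 of the Ccng1 window and at base 78 of the Sesn1 window. Windows were listed for 7 of the 10 genes, and 3 of the 7 held a half-site, against 906 of 10838 tested genes with a window (8.36%). The 4 letters CATG, which form the centre of many half-sites and read the same on both strands, were found in windows of Phlda3, Gdf15 and Eda2r, against 53.4% of tested genes. Sesn1 has another listed start, whose window held no half-site, and Aen another, whose overlapping window holds the same one. A match is only a match of letters, and no binding was measured.

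All 10 genes differed between the groups, 8 of them higher and 2 lower in the clones. Gdf15, Plk2 and Perp were more than 10 times as high in the clones by the ratio of means, Ccng1, Phlda3, Eda2r, Aen and Zmat3 rose less, and Trp53inp1 and Sesn1 fell. In limma, which tests each gene against the spread between libraries, 73.5% of 15179 tested genes passed an adjusted p of 0.05 in either direction, 35.2% higher and 38.3% lower. The values of the 2 groups did not overlap for any of the 10, while this was so for 77.3% of tested genes, 36.7% higher and 40.6% lower in the clones. So 10 of 10 stands against 73.5%, 8 higher against 35.2% and 2 lower against 38.3%. The median log2 fold change of the 10 was 1.25, beside -0.07 for all tested genes. An exact permutation test, two-sided, gave p = 0.1 for each gene, the smallest that 3 against 3 libraries allow. The genes were selected with results of these libraries known, so these counts describe them and test nothing about p53 targets as a class.

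**Figure D1:**
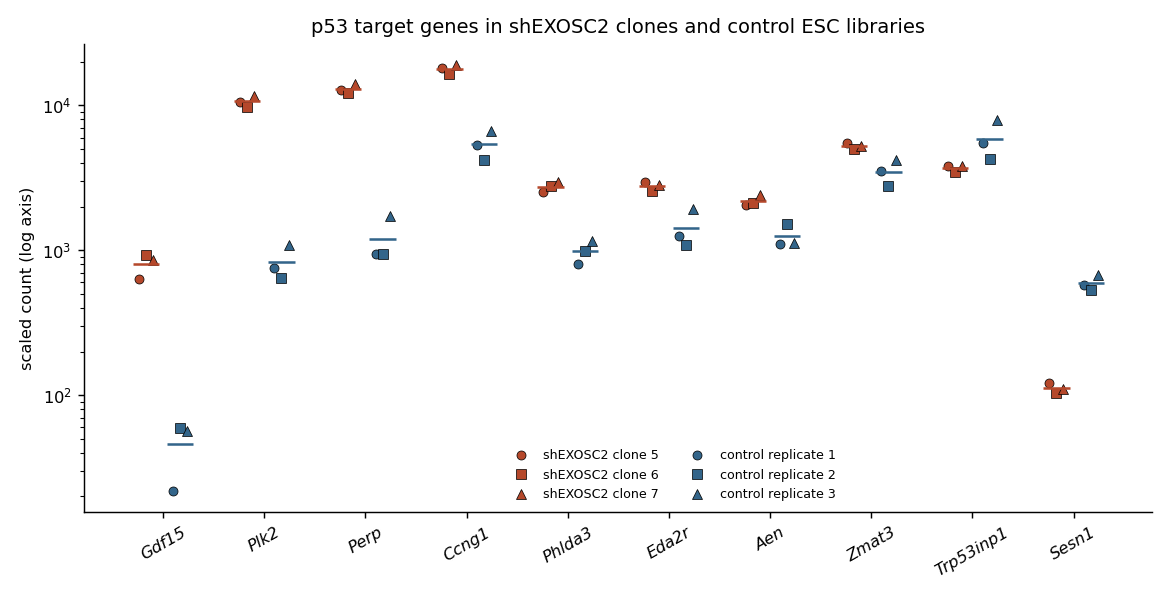
Scaled counts (log axis) of the 10 p53 target genes, ordered by log2 fold change. Each point is a library, shEXOSC2 clones in red on the left and controls in blue on the right of each gene, and horizontal lines are group means. The clones lie above the controls for 8 genes and below them for Trp53inp1 and Sesn1, with no overlap in any.

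Both genes with roles in cell division rose. Plk2 (ENSMUSG00000021701.7, chromosome 13, positions 110395046 to 110400844 in GRCm38) encodes a polo-like kinase of centriole duplication and the entry into S phase. Its scaled counts were 10624, 9784 and 11563 in clones 5, 6 and 7, against 753.8, 646.9 and 1079 in control replicates 1, 2 and 3. The lowest clone was above the highest control, and the ratio of means was 12.9. The log2 fold change was 3.72 ± 0.18 (adjusted p = 3.2e-07), and only 3.54% of tested genes had a larger one. Ccng1 (ENSMUSG00000020326.7, chromosome 11, positions 40748552 to 40755311) encodes cyclin G1, an atypical cyclin that brings a phosphatase to MDM2 and so takes part in feedback on p53. It measured 18007, 16354 and 18915 in the clones and 5302, 4223 and 6605 in the controls. Its log2 fold change was 1.74 ± 0.16 (adjusted p = 1.3e-05), and the ratio of means was 3.30.

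Another 5 genes act in cell death or in the survival signalling that opposes it, and 4 of these rose while Trp53inp1 fell. Perp (ENSMUSG00000019851.7, chromosome 10, positions 18845020 to 18857073) encodes a membrane protein that promotes apoptosis and is also a part of desmosomes. Perp measured 12789, 12256 and 14106 in the clones and 941.3, 935.3 and 1730 in the controls. The fold change was 3.50 ± 0.22 on the log2 scale (adjusted p = 1.5e-06). Control replicate 3 was well above the other two controls but still far under every clone.

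Phlda3 (ENSMUSG00000041801.5, chromosome 1, positions 135766119 to 135769136) encodes a small lipid-binding protein that keeps the survival kinase AKT off the membrane. Its scaled counts were 2522, 2769 and 2971 in the clones, against 799.3, 994.7 and 1159 in the controls. The groups were clearly apart, with a log2 fold change of 1.50 ± 0.15 (adjusted p = 2.2e-05). Eda2r (ENSMUSG00000034457.10, chromosome X, positions 97333840 to 97377216) encodes a receptor of the tumour necrosis factor receptor family for a form of ectodysplasin. It measured 2967, 2551 and 2830 in the clones and 1260, 1080 and 1931 in the controls, a log2 fold change of 1.01 ± 0.20 (adjusted p = 0.0016). Aen (ENSMUSG00000030609.18, chromosome 7, positions 78895854 to 78911209) encodes a nuclear exonuclease that enhances apoptosis. It measured 2066, 2114 and 2413 in the clones and 1106, 1525 and 1123 in the controls. Here control replicate 2, not 3, was the highest control, and the log2 fold change was 0.83 ± 0.15 (adjusted p = 8.4e-04).

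Trp53inp1 (ENSMUSG00000028211.11, chromosome 4, positions 11156431 to 11174379) encodes a stress-induced protein that promotes p53 activity, cell death and autophagy. It measured 3819, 3466 and 3786 in the clones, against 5487, 4275 and 7945 in the controls. All clones were below all controls, but the controls spread over a 1.86-fold range and the clones over 1.10-fold. The log2 fold change was -0.63 ± 0.20 (adjusted p = 0.019). Of the 10 calls, only this one was lost under an alternative fit. It did not pass without clone 6 (-0.59, adjusted p = 0.057) or without control replicate 1 (-0.66, adjusted p = 0.053), the value was -0.39 without control replicate 3 (adjusted p = 0.023), and with chromosome medians subtracted it was -0.35 (adjusted p = 0.15). The median of tested genes on chromosome 4 was itself -0.29.

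The remaining genes encode an RNA-binding protein, a nutrient sensor and a hormone, and they differed in direction and size. Zmat3 (ENSMUSG00000027663.12, chromosome 3, positions 32334792 to 32366014) encodes a zinc finger protein that binds RNA and affects splicing and mRNA stability. It measured 5535, 4982 and 5247 in the clones and 3509, 2796 and 4164 in the controls. This was the smallest of the rises, with a log2 fold change of 0.61 ± 0.15 (adjusted p = 0.0047), and 31.3% of tested genes had a higher value. Sesn1 (ENSMUSG00000038332.12, chromosome 10, positions 41809935 to 41908424) encodes sestrin 1, a stress protein that restrains growth signalling through mTOR. It measured 120.4, 102.7 and 110.7 in the clones, against 577.7, 535.7 and 679.0 in the controls. The clones held 18.6% of the control level, and both groups were tight. The log2 fold change was -2.41 ± 0.17 (adjusted p = 2.3e-06), and 13.5% of tested genes had a lower one.

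Gdf15 (ENSMUSG00000038508.7, chromosome 8, positions 70629393 to 70632456) encodes a secreted stress hormone of the TGF-beta family. Its scaled counts were 628.7, 933.9 and 850.6 in the clones and 21.78, 59.40 and 56.25 in the controls. The ratio of means, 17.6, was the largest of the 10, although Gdf15 also varied most between libraries of a group. The standard deviation of its log2 values was 0.30 in the clones and 0.79 in the controls. The log2 fold change was 4.21 ± 0.37 (adjusted p = 1.0e-05), and 2.71% of tested genes had a higher one.

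**Figure D2:**
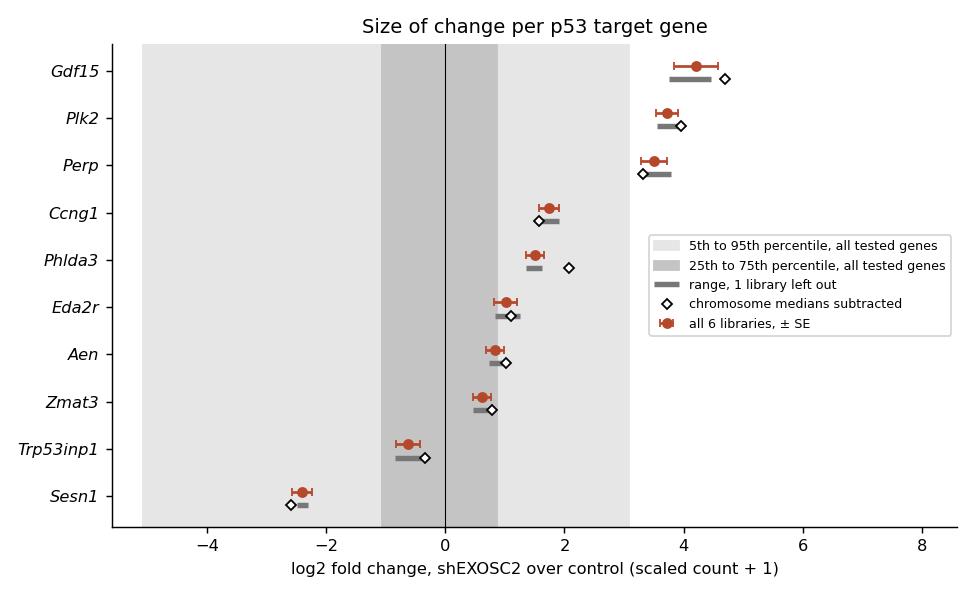
Log2 fold change of each p53 target gene, shEXOSC2 over control. Red points with bars are the estimate ± SE from all 6 libraries, grey bars the range over fits that each leave out 1 library, and diamonds the value with chromosome medians subtracted. Shading marks the middle 50% (-1.06 to 0.87) and 90% (-5.07 to 3.08) of all tested genes, and Gdf15, Plk2 and Perp lie above the upper edge of the wider band.

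Divided by the length of the annotated exons, the order of levels changed between the groups. In the clones Perp was highest, at 6686 ± 488 scaled counts per kb (SD, n = 3), followed by Ccng1 at 5056 ± 370, Plk2 at 2373 ± 198 and Phlda3 at 1767 ± 144. Trp53inp1 came next at 569.9 ± 30.2. Eda2r (472.4 ± 36.0), Zmat3 (459.5 ± 24.2) and Gdf15 (434.3 ± 85.2) lay within their spread of each other. Aen (378.9 ± 32.4) lay within the spread of Gdf15, and Sesn1 was lowest at 27.94 ± 2.22. In the controls Ccng1 was highest at 1531 ± 340 per kb and Trp53inp1 was next at 911.5 ± 289, within its spread of Phlda3. Phlda3 (631.4 ± 116) and Perp (615.8 ± 234) did not differ beyond their spread, nor did Zmat3 (305.2 ± 59.8), Eda2r (241.7 ± 76.2), Aen (215.7 ± 40.9) and Plk2 (184.0 ± 50.1) as neighbours in that order. Sesn1 stood at 150.0 ± 18.5, within the spread of Plk2, and Gdf15 at 24.74 ± 11.3. By the longest annotated transcript instead, Plk2 had 3806 per kb in the clones and 295.2 in the controls. Zmat3 then had 674.0 in the clones, beside 679.3 for Trp53inp1. In the controls Plk2 (295.2 ± 80.31) was then above Aen (252.5 ± 47.85), but within their spread. The order of such close genes thus depends on the length used. These are bulk values, in which fewer cells that express a gene and less RNA per cell cannot be told apart.

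By the ratio of the highest to the lowest value, each of the 10 genes spread over a wider range in the controls than in the clones. Control replicate 3 had the highest control value for 8 of the 10, all but Gdf15 and Aen, where control replicate 2 was highest. Over all tested genes whose 3 control values differed, replicate 3 was highest in 40.2%. The median deviation of the 10 genes from the control mean was 0.37 on the log2 scale in replicate 3, -0.11 in replicate 1 and -0.30 in replicate 2, against 0.02, 0.00 and -0.03 over all tested genes. Among the 45 other p53 targets described next, replicate 3 was highest for 24. In the clones the highest over the lowest value ranged from 1.10 for Trp53inp1 to 1.49 for Gdf15, against 1.27 for Sesn1 to 2.73 for Gdf15 in the controls. Control replicate 3 also stood apart in other genes, such as Krt14, named after its values were seen, and Egr1. It had 178.8 scaled counts of the keratin gene Krt14, against 5.682 and 9.720 in control replicates 1 and 2, and 428.9 of the immediate early gene Egr1, against 2964 and 2698. Whether this difference between the controls bears on the p53 targets was not tested. Without control replicate 3 all 10 genes kept their direction and passed. The log2 fold changes were then 3.79 for Perp, 3.93 for Plk2, 4.42 for Gdf15 and 1.25 for Eda2r. They were 1.91 for Ccng1, 1.62 for Phlda3 and 0.74 for Zmat3. Aen (0.76), Sesn1 (-2.31) and Trp53inp1 (-0.39) changed less than with all libraries.

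**Figure D3:**
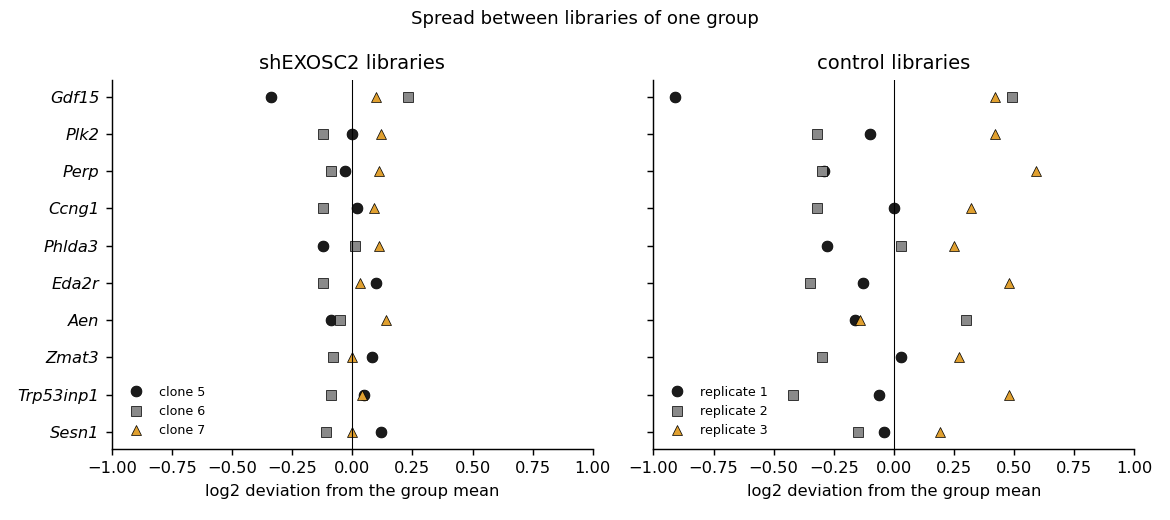
Deviation of each library from its group mean (log2 scale) for the 10 p53 target genes, shEXOSC2 clones on the left and controls on the right. Control replicate 3 is the highest control for 8 genes, and each gene spans a narrower range in the clones than in the controls.

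The genes that encode and control p53 moved in both directions. Among the 20 in the table, 4 rose and 9 fell, 7 did not pass, and the median was -0.26 on the log2 scale. For this and each list that follows, the shares of all tested genes to set beside the counts are 35.2% higher and 38.3% lower, and no list was tested against them. Trp53 itself measured 7287, 7557 and 7832 in the clones and 10218, 10374 and 7396 in the controls, and it did not pass (-0.29 ± 0.14, adjusted p = 0.093). Control replicate 3 fell inside the range of the clones, and without it the value was -0.45 (adjusted p = 0.0019). It was -0.41 with quantile normalization (adjusted p = 0.017) and -0.46 with chromosome medians subtracted (adjusted p = 0.016). Mdm2, a p53 target that encodes the ligase of p53, rose, with 10496, 9430 and 10871 in the clones against 3488, 3160 and 4716 in the controls (1.46 ± 0.15, adjusted p = 3.0e-05). Hipk2, a kinase that phosphorylates p53, rose by 2.70 ± 0.12 on the log2 scale. The checkpoint kinase gene Chek1 had a log2 fold change of -1.62 ± 0.12, and Trp73, which encodes a relative of p53, had -3.40 ± 0.30 at a low level, with 3.690 to 5.137 in the clones and 43.56 to 69.12 in the controls, and -2.01 with quantile normalization. Mdm4, an inhibitor of p53 named here after its values were seen, fell by 0.64 on the log2 scale (SE 0.18).

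Of 45 other p53 targets, 18 rose and 13 fell while 14 did not pass, beside 35.2% higher and 38.3% lower among all tested genes. The log2 fold changes had a median of 0.27 and a range from -4.47 to 2.74. Mdm2 and Ppm1d stand both in this list and among the regulators. Cdkn1a, which encodes the cell cycle inhibitor p21, had the largest rise, with 15010, 15671 and 16511 in the clones against 2271, 2276 and 2492 in the controls (2.74 ± 0.09, adjusted p = 7.5e-08). Among 7 genes of cell cycle arrest it was the only one to rise (2 rose without control replicate 3 and 3 with chromosome medians subtracted), while the arrest genes Gadd45a and Rprm fell. Gadd45a measured 80.58, 94.52 and 95.94 in the clones and 1528, 1654 and 1080 in the controls (-3.94 ± 0.19). Rprm was low, with 6.964, 5.137 and 11.07 in the clones and 39.77, 48.60 and 32.14 in the controls. Its log2 fold change was -2.28 ± 0.34, and -1.0 with quantile normalization. The count of arrest genes that fell was 1 at a minimum mean of 50, and 3 with quantile normalization or chromosome medians subtracted.

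Of 10 genes of cell death, 4 rose and 3 fell. Tnfrsf10b, a death receptor gene, rose by 1.41 ± 0.12 and Ei24, first found as a p53-induced gene, by 0.86 ± 0.10. Pmaip1, which encodes the proapoptotic protein NOXA, was lower in the clones at 480.5, 470.6 and 483.4, against 2472, 2091 and 3093 in the controls (-2.39 ± 0.15). Named after their values were seen, Bbc3, which encodes the proapoptotic protein PUMA, fell by 1.68 on the log2 scale (SE 0.33), Fas rose by 1.38 ± 0.24, and Bax did not pass at 0.27 ± 0.18 (adjusted p = 0.21).

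Of 5 DNA repair genes, 2 rose and 2 fell. Ddb2 and Ercc5, both of nucleotide excision repair, had log2 fold changes of -1.04 ± 0.17 and -0.99 ± 0.15. Rrm2b, a subunit of ribonucleotide reductase, had 0.68 ± 0.20, and its call was lost without control replicate 1 (0.67, adjusted p = 0.050), with quantile normalization (0.52) and with chromosome medians subtracted (0.42). The count of repair genes that rose was 1 without clone 5 or control replicate 2 or with chromosome medians subtracted, and 0 without control replicate 1 or with quantile normalization.

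Of 11 metabolic genes, 5 rose and 4 fell. Ephx1, an epoxide hydrolase of detoxification, rose by 2.55 ± 0.19, or 3.14 with chromosome medians subtracted. The mTOR inhibitor gene Ddit4 had a log2 fold change of -2.23 ± 0.15, with 1321, 1728 and 1325 in the clones and 5780, 7036 and 7766 in the controls, and the glutaminase gene Gls2 had -2.52 ± 0.23. The last list, of 12 feedback and other genes, had 6 that rose and 2 that fell. Only 1 fell when clone 5, 6 or 7 or control replicate 1 or 2 was left out or the eBayes trend was not used. The count that rose was 4 without control replicate 1 or 2 and 9 without control replicate 3. In this list Epha2, a receptor kinase gene, rose by 2.16 ± 0.20 and the adenylate kinase gene Ak1 by 1.91 ± 0.11. Trp53i11 measured 50.73, 32.88 and 57.20 in the clones and 876.0, 1147 and 1092 in the controls, the lowest log2 fold change of the 45 (-4.47 ± 0.24).

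**Figure D4:**
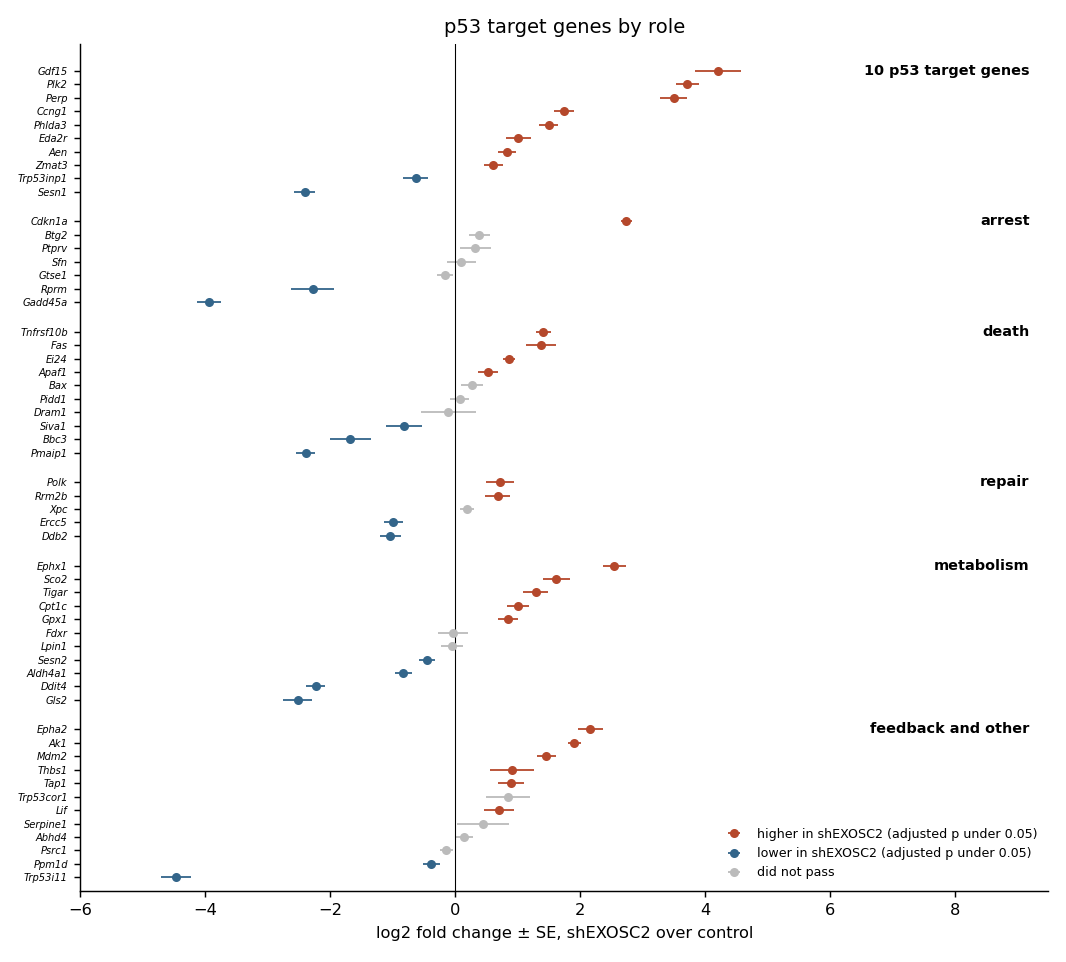
Log2 fold change ± SE of the 10 p53 target genes (top block) and of 45 other p53 targets by role, shEXOSC2 over control. Red points rose, blue points fell and grey points did not pass at an adjusted p of 0.05. Every block holds genes on both sides of 0.

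Of 17 tested paralogs of the 10 genes, 2 rose and 10 fell, 5 did not pass, and the median was -0.47. In the Plk family Plk2 was the only member to rise. Plk1 and Plk4, kinases of mitosis and centriole duplication, had log2 fold changes of -0.98 ± 0.17 and -0.80 ± 0.12, and Plk5 measured 0.9948, 1.027 and 1.845 in the clones against 146.8, 344.5 and 145.6 in the controls. Plk3 did not pass, at -0.09 ± 0.21, and its sign turned to 0.20 with chromosome medians subtracted and to 0.04 without clone 5 or without control replicate 3.

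The Phlda genes split widely. Phlda1 rose with Phlda3, to 2844, 3554 and 3759 in the clones, against 143.0, 186.8 and 216.9 in the controls (4.22 ± 0.18), while the imprinted gene Phlda2 measured 5.969, 12.33 and 10.15 in the clones and 670.5, 1416 and 572.5 in the controls (-6.34 ± 0.39). Tnfrsf19, a receptor gene related to Eda2r, was at 0.9225 to 1.027 in the clones and 283.0 to 307.8 in the controls. Isg20, an interferon-induced exonuclease gene related to Aen, rose by 2.88 ± 0.31, and Isg20l2 had -0.68 ± 0.12.

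The paralogs in the other families differed less than Plk5, Phlda1, Phlda2, Tnfrsf19 and Isg20 did. Among the sestrins, Sesn2 measured 1363, 1670 and 1593 in the clones and 2026, 2388 and 1916 in the controls (-0.45 ± 0.13), a call lost without clone 5 (-0.36, adjusted p = 0.057) and with chromosome medians subtracted (-0.17, adjusted p = 0.23). Sesn3 did not pass (0.21 ± 0.15), so only Sesn1 of the 3 differed by more than 2-fold. Trp53inp2 fell with Trp53inp1, by 0.78 on the log2 scale (SE 0.15). Ccng2 did not pass (-0.39 ± 0.21), though it did with quantile normalization (-0.61) and with chromosome medians subtracted (-0.69). Ccni had -0.38 ± 0.12, a call lost without clone 5, clone 7 or control replicate 1, where it was -0.37, -0.29 and -0.32, and without the eBayes trend (-0.38, adjusted p = 0.055). Zmat1 was low in both groups (-2.27 ± 0.52, and not passing at -0.64 with quantile normalization). Zmat4 did not pass at -0.47 ± 0.30 but did without control replicate 3 (-0.84), and it was 0.01 with chromosome medians subtracted. Tmem47, a relative of Perp, did not pass at -0.27 ± 0.12 but did without control replicate 3, at -0.34, and with quantile normalization, at -0.49.

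**Figure D5:**
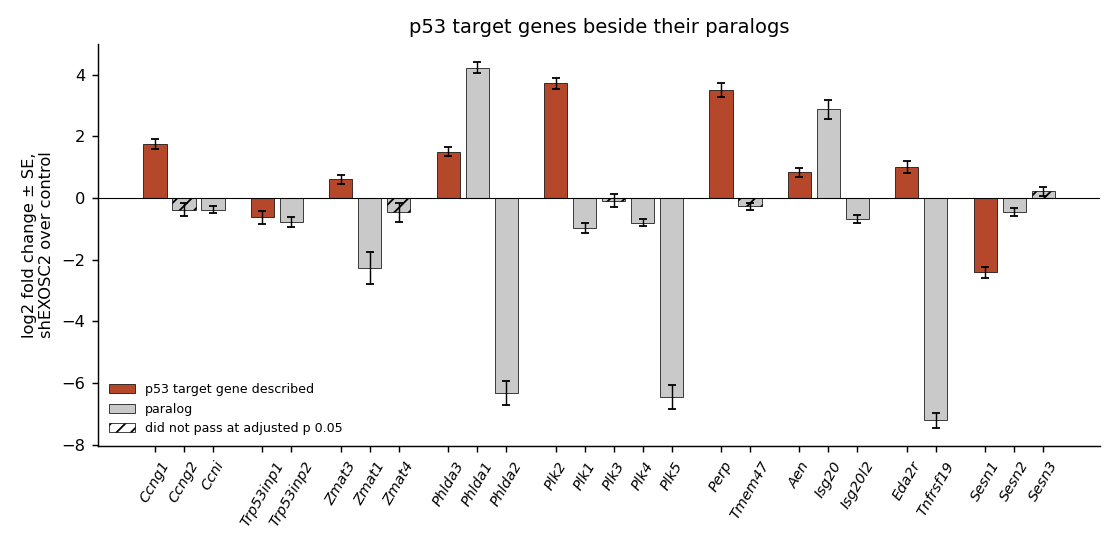
Log2 fold change ± SE, shEXOSC2 over control, of 9 p53 target genes (red) beside their tested paralogs (grey), grouped by family. Hatched bars did not pass at an adjusted p of 0.05. Phlda1 and Isg20 are the only paralogs above 0 that passed.

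Partners and other inducers of the 10 genes were also measured. Perp is a part of desmosomes, and the desmosomal plaque gene Dsp rose with it, to 9533, 8649 and 9711 in the clones against 1127, 1077 and 2481 in the controls (2.68 ± 0.28). Jup and Pkp3 rose by 1.51 ± 0.17 and 1.18 ± 0.24, Dsg2 had -1.46 ± 0.16 and Dsc2 did not pass (0.18 ± 0.36), these 4 named after their values were seen. Of the GATOR2 subunits, through which sestrins act on mTOR, Wdr59 and Seh1l had -1.61 ± 0.12 and -1.32 ± 0.14. Named after their values were seen, Mios had -1.0 ± 0.11, while Wdr24 (0.07 ± 0.17) and Sec13 (0.29 ± 0.12) did not pass. Over all 12 partners, 3 rose and 5 fell while 4 did not pass. Of 6 tested factors that are known to act on some of the 10 genes besides p53, 5 fell and 1 did not pass, and 3 fell without clone 5, without clone 7, without control replicate 1 or without the eBayes trend. Ddit3, which encodes CHOP, measured 175.1, 168.5 and 179.0 in the clones and 310.6, 497.9 and 963.2 in the controls (-1.60 ± 0.35), Foxo1 had -0.94 ± 0.14, and Egr1 had -2.31 ± 0.64, which did not pass without control replicate 1 (-1.82, adjusted p = 0.059) and was -3.22 without control replicate 3. Atf4, named after its values were seen, had -0.37 ± 0.14 (adjusted p = 0.039).

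For each of the 10 genes the most similar of 12393 other genes was taken by Pearson's r of log2 values over the 6 libraries. The r was 0.9974 for the pair Trp53inp1 and Tmem209 and between 0.9980 and 0.9999 for the other 9. Because the libraries form 2 groups, such values mostly follow the group difference, and 1070 genes were above 0.99 with Plk2 but only 5 with Trp53inp1. The closest gene was Sel1l for Ccng1, Wdr1 for Plk2, Furin for Gdf15, Ext2 for Phlda3, Kpna7 for Perp and Map3k15 for Sesn1. Those of Zmat3, Aen and Eda2r were 9230114K14Rik, Narfl and Mapkbp1.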

How the data were processed

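Poly(A) RNA of 3 shEXOSC2 clones and 3 controls was sequenced, grouped by sample title. The build mm10 and the tools STAR 2.5.0a, cutadapt 1.6, DESeq 1.22.1 and HTSeq 0.5.3 stand in the submitters' processing notes, without settings. Per the file headers the deposited values are a signal, read counts per gene scaled by DESeq. In each library 100.0% of values came out as whole multiples of that library's smallest value (within 0.001). For clone 5 and control replicate 3 that value is close to 1, and the check used did not accept it as 1 read. No source used here says whether counting used strand. Sesn1 overlaps another annotated gene, with no shared exon, and the other 9 overlap none.

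Genes with a mean of at least 10 were tested across all genes with limma 3.58.1 (lmFit, eBayes with trend) on log2(scaled count + 1), with Benjamini-Hochberg adjustment at 0.05. Fold changes on this scale understate the change of low genes. The test was tried on simulated data in which far fewer genes changed than were called here, so that trial does not check the calls in these data. Of 17912 genes, 17860 matched GENCODE M21 (GRCm38) by identifier, which gave positions and exon lengths. Members and lists were chosen with earlier results of these data known. The text names Exosc2, the 10 genes, Trp53, Mdm2, Cdkn1a, the 3 smallest p-values of each list, paralogs and the most similar genes, and says where others were named after their values were seen. Python 3.11.15 (numpy 2.4.6, pandas 2.3.3, matplotlib 3.10.9) and R 4.3.3 were used.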

Additional observations from a re-analysis of the deposited data

How the results depend on the processing

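The fit was repeated with a pseudocount of 0.5 or 5, without a filter or with a minimum mean of 50, with quantile or TMM scaling, without the eBayes trend, with chromosome medians subtracted, and without each library in turn. The calls and directions of Exosc2 and of 9 of the 10 genes did not change under any of them. Trp53inp1 did: its log2 fold change was -0.35 with chromosome medians subtracted and -0.84 to -0.39 when a library was left out, and the number of the 10 genes called lower was then 1 and 1 to 2. The cause was not tested. Plk3 turned to 0.20 with chromosome medians subtracted and ranged from -0.27 to 0.04 when a library was left out, and Zmat4 turned to 0.01 with chromosome medians subtracted. Between 10216 and 11379 genes were called when a library was left out, against 11158 with all. The count tests that had been planned on recovered reads were not run. The check used did not accept whole reads for clone 5 and control replicate 3, whose smallest value is close to 1. No paired analysis was possible because the groups share no replicate number. With 3 libraries a group, no exact permutation test of a single gene can pass 0.05.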

Other observations

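Of 15 cell cycle genes that p53 is known to lower through p21, 12 fell and 1 rose in the clones while 2 did not pass, beside 38.3% lower and 35.2% higher among all tested genes. No test of the list was made. The list's median log2 fold change was -0.62, beside -0.07 for all tested genes. Mybl2, a transcription factor gene of the cell cycle, measured 3076, 3374 and 3309 in the clones and 10022, 13312 and 11822 in the controls (-1.84 ± 0.12), and the mitotic cyclin gene Ccnb1 had -1.59 ± 0.11. Foxm1, which encodes a factor that drives mitotic genes, was the exception, with 5850, 5168 and 5898 in the clones and 1975, 2073 and 1787 in the controls (1.54 ± 0.11). The proliferation marker Mki67, named after its values were seen, did not pass at 0.07 ± 0.14 (adjusted p = 0.66).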
